A study of Homo sapiens with 6 samples.

Results

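Siglecs are receptors of the leukocyte surface that bind sialic acid, the sugar that caps most glycan chains on mammalian cells. Most CD33-related Siglecs carry tyrosine motifs in the cytoplasmic tail that recruit the phosphatases encoded by PTPN6 and PTPN11, and by this route they restrain activation of myeloid cells. CD33 is a classical antigen of myeloid leukaemia and a target of antibody therapy. The genes described here were CD33, SIGLEC5, SIGLEC6, SIGLEC7, SIGLEC9, SIGLEC10, SIGLEC14 and SIGLEC1, chosen by gene symbol, 8 genes of 61806 in the count table. All 8 were among the 19485 genes with enough counts to be tested. The group was picked because SIGLEC9 was much lower in CD69-overexpressing cells, so the values of these 8 genes in the comparison of overexpressing with control cells are given as a description. SIGLEC1 (sialoadhesin, a macrophage receptor without the inhibitory motif) is not a CD33-related Siglec and lies on chromosome 20. The other 7 lie in 1 cluster on chromosome 19.

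Poly(A) RNA was sequenced from NB4, a human cell line of acute promyelocytic leukaemia, with no drug given to any culture. In 3 libraries the cells stably overexpressed CD69, a C-type lectin that appears on activated leukocytes, after lentiviral delivery. The other 3 libraries came from NB4 cells that the series' design text calls vector controls and whose genotype label is wild type. All 6 carry the same batch label. The design text calls the libraries biological replicates, but whether each had its own transduction is not given in the sources used here. Total counts lay between 51543550 and 57463020 per library, and levels are given as CPM, counts scaled to library size with TMM factors. CD69 itself stood at 98.3, 99.1 and 95.7 CPM in overexpressing replicates 1, 2 and 3, against 80.4, 81.9 and 70.6 CPM in the controls, with no overlap (log2 fold change 0.33, SE 0.07, edgeR adjusted p = 0.0153). Of 8 promyelocyte markers, 7 were above 1 CPM in every library, while myeloperoxidase (MPO), the defining granule enzyme of this stage, was at 0.518 to 1.03 CPM in the overexpressing libraries and 0.928 to 1.45 CPM in the controls. Overexpressing replicate 1 stood apart from replicates 2 and 3 in B cell transcripts. The 12 B cell markers summed to 35.5, 257 and 273 CPM in overexpressing replicates 1, 2 and 3, against 35.4, 32.9 and 23.0 CPM in the controls.

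The SIGLEC9 and SIGLEC7 genes lie next to each other, and the sequence just before their annotated first exons is shown because these 2 near copies differed between the groups in opposite directions. SIGLEC8, a more distant relative in the same cluster, is shown beside them. The sequences are from RefSeq (GRCh38.p14), cut to the bases before the first exon in GENCODE 29. For SIGLEC7 this is chr19:51142209-51142298 on the plus strand. For SIGLEC9 (chr19:51124814-51124903, plus strand) and SIGLEC8 (chr19:51458459-51458548, minus strand) the stretch of 90 bases that best matched SIGLEC7 without gaps is shown. The matches given below are therefore those of the best position, not of a position fixed beforehand. Capitals mark the bases that differ from SIGLEC7 in the first line and from SIGLEC9 in the other lines.
SIGLEC9: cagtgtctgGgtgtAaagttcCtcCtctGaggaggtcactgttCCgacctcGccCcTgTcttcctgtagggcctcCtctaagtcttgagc
SIGLEC7: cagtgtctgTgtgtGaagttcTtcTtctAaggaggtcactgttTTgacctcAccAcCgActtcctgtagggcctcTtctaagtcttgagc
SIGLEC8: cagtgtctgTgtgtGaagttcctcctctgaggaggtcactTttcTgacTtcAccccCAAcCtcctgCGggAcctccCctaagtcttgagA
SIGLEC7 matched SIGLEC9 at 78 of 90 bases, and SIGLEC8 matched SIGLEC9 at 75. The promoter table held windows of 300 bases for 7 of the 8 genes, without SIGLEC1. The letters GAGGAAG, a PU.1-type motif that contains the ETS core, occurred on either strand in the window of CD33 and in none of the other 6, and in 13.6% of all 35097 windows. TGTGGT, a RUNX motif (13.1% of windows), and TTNCNNAA, a C/EBP motif (36.9%), occurred on neither strand in the 7 windows.

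SIGLEC9 was the member with the largest difference downward. SIGLEC9 (ENSG00000129450, chr19:51124908-51136651, plus strand) encodes an inhibitory receptor of neutrophils, monocytes and natural killer cells. It held 18, 17 and 18 counts in overexpressing replicates 1, 2 and 3, against 184, 188 and 184 counts in the controls. In CPM it averaged 0.325 ± 0.0257 in the overexpressing libraries and 3.29 ± 0.0177 in the controls (SD, n = 3 each), a log2 fold change of -3.33 (SE 0.22). The groups did not overlap, and the libraries of a group lay close to each other. Only 20 of the 19485 tested genes had a lower fold change. Since 1 fragment may stand for about 4 of the deposited counts, the overexpressing value may rest on few fragments per library.

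SIGLEC7, which starts 17.4 kb after SIGLEC9 and is the inhibitory Siglec best known from natural killer cells, differed the other way. SIGLEC7 (ENSG00000168995, chr19:51142299-51153526, plus strand) stood at 29.1, 27.1 and 31.3 CPM in the overexpressing libraries, against 17.5, 17.5 and 18.6 CPM in the controls. Every overexpressing library was above every control, and the log2 fold change was 0.71 (SE 0.09). Per kb of exon, the SIGLEC7 level was 112 ± 1.11 times the SIGLEC9 level in the overexpressing libraries and 6.75 ± 0.262 times in the controls (SD, n = 3 each). The ratio in the overexpressing libraries rests on 17 or 18 SIGLEC9 counts per library, so it is less certain than its SD shows. SIGLEC7 shares 22.7% of its exon length with an antisense gene, and the strand setting of the counting is not given in the sources used here. That antisense gene held 0.792 CPM on average in overexpressing cells and 0.640 CPM in controls.

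CD33 (ENSG00000105383, chr19:51225064-51243860, plus strand) was slightly higher in the overexpressing cells. It stood at 51.9, 55.7 and 57.8 CPM in the overexpressing libraries, against 45.0, 46.3 and 49.8 CPM in the controls. The groups did not overlap, but the log2 fold change of 0.23 (SE 0.07) did not pass the threshold of adjusted p under 0.05 in the fit over all genes. It passed with control replicate 3 left out (log2 fold change 0.28).

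SIGLEC5 and SIGLEC14 are a pair of neighbouring genes with opposite signalling. SIGLEC5 encodes an inhibitory receptor, and SIGLEC14 an activating one that binds the same ligands and signals through the adaptor DAP12, the product of TYROBP. SIGLEC5 (ENSG00000268500, chr19:51612091-51646889, minus strand) stood at 44.9, 41.6 and 42.6 CPM in the overexpressing libraries, against 62.0, 59.6 and 64.4 CPM in the controls. All 3 overexpressing libraries were below all 3 controls, with a log2 fold change of -0.53 (SE 0.07). SIGLEC14 (ENSG00000254415, chr19:51642553-51646801, minus strand) stood at 25.3, 25.6 and 25.4 CPM in the overexpressing libraries, against 27.4, 28.0 and 28.3 CPM in the controls. Its groups did not overlap either, at a log2 fold change of -0.13 (SE 0.07) that did not pass the threshold.

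The split of counts between SIGLEC5 and SIGLEC14 is uncertain. In GENCODE 29 the SIGLEC5 identifier shares 463 exonic bases with SIGLEC14 on the same strand, which is 22.2% of the SIGLEC14 exon length. The promoter windows of the 2 genes were the same at 245 of 300 positions, with the last 163 positions identical. A further identifier named SIGLEC5 (ENSG00000105501), which shares 1759 exonic bases with the first, held 2 counts in each overexpressing library and 7, 2 and 3 counts in the controls, and was not tested.

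SIGLEC10, an inhibitory receptor for the glycoproteins CD24 and CD52, was slightly lower in the overexpressing cells. SIGLEC10 (ENSG00000142512, chr19:51410021-51417803, minus strand) stood at 20.9, 21.6 and 21.5 CPM in the overexpressing libraries, against 26.0, 24.0 and 26.8 CPM in the controls. The groups did not overlap, and the log2 fold change was -0.26 (SE 0.08). It lay just inside the threshold, and outside it when any 1 of the 6 libraries, overexpressing or control, was left out (log2 fold change -0.32 to -0.23).

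SIGLEC6, which is found on mast cells and placental trophoblast, had overlapping groups. SIGLEC6 (ENSG00000105492, chr19:51519525-51531856, minus strand) stood at 77.0, 75.0 and 57.5 CPM in overexpressing replicates 1, 2 and 3, against 74.7, 68.2 and 47.2 CPM in control replicates 1, 2 and 3. Replicate 3 was the lowest in both groups, and the log2 fold change was 0.14 (SE 0.18). Antisense genes overlap 16.5% of the SIGLEC6 exon length and 16.2% and 6.44% of that of SIGLEC10.

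SIGLEC1 (ENSG00000088827, chr20:3686970-3707128, minus strand) had the largest difference upward. It held 57, 96 and 41 counts in the overexpressing libraries, against 7, 8 and 4 counts in the controls, with no overlap. The mean was 1.17 ± 0.470 CPM in the overexpressing libraries and 0.112 ± 0.0365 CPM in the controls (SD, n = 3 each), a log2 fold change of 3.36 (SE 0.47). The size of this difference rests on few control counts, and with overexpressing replicate 1 alone against the controls the value was 3.15 and no longer passed the threshold. Coding genes of chromosome 20 as a whole had a median log2 fold change of 0.37 over 394 tested genes, against 0.00 for 1106 tested coding genes of chromosome 19.

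**Figure D1:**
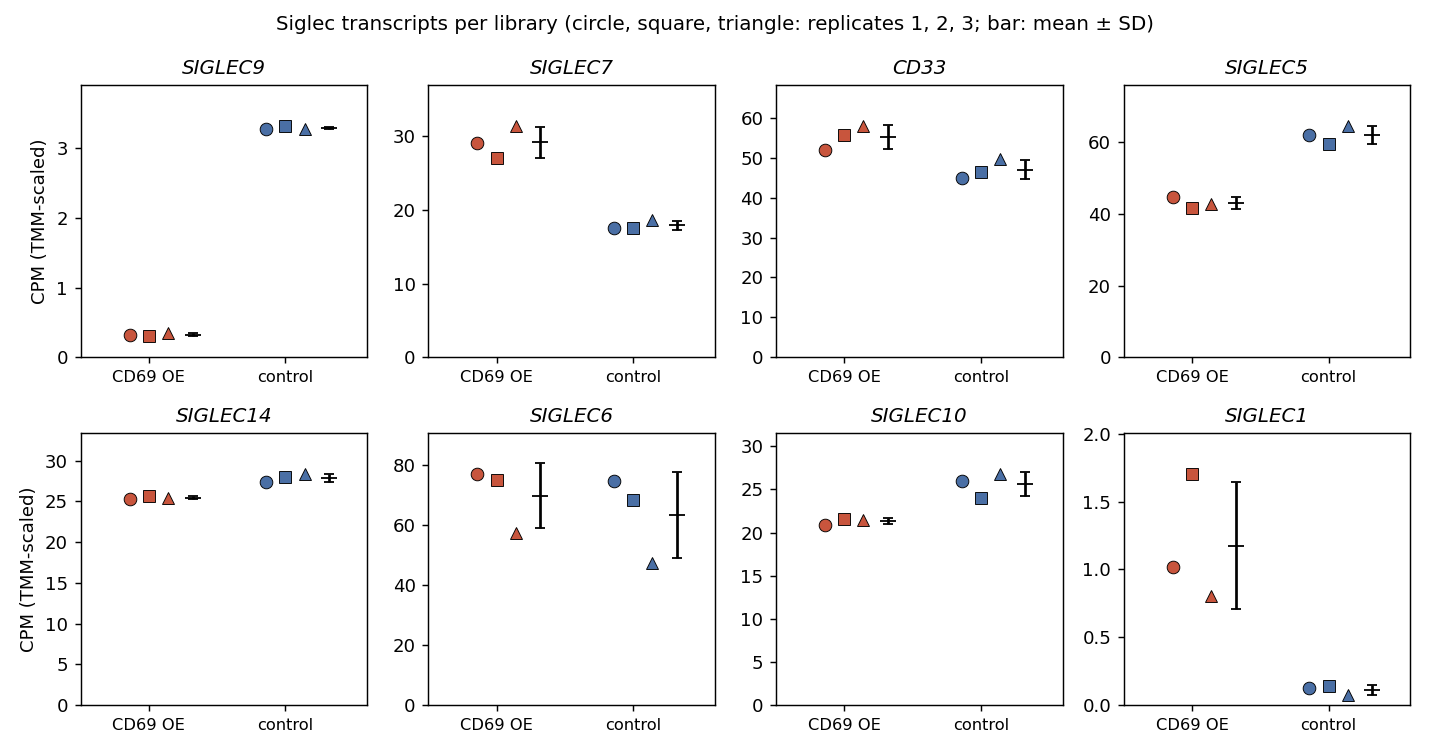
Level of each Siglec gene in each library in CPM (vertical axes, each starting at 0), with CD69-overexpressing libraries on the left and vector controls on the right of each panel; symbols are replicates 1 to 3 and the bar is the mean with its SD. SIGLEC9 sits at 0.302 to 0.353 CPM in the overexpressing libraries and 3.28 to 3.31 CPM in the controls, SIGLEC7 and SIGLEC1 are higher in the overexpressing libraries, and SIGLEC6 overlaps between the groups.

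In the fit over all genes, 2 of the 8 members were higher past the threshold (SIGLEC7 and SIGLEC1), 3 were lower (SIGLEC9, SIGLEC5 and SIGLEC10) and 3 did not pass (CD33, SIGLEC6 and SIGLEC14). Over all tested genes 24.1% passed, 14.2% higher and 9.94% lower. Groups did not overlap for 7 of the 8 members and for 42.3% of all tested genes. The comparison was used to pick the group, so nothing is read from these shares. The median log2 fold change was 0.00 over the 8 members and 0.01 over all tested genes. The 8 genes summed to 246 ± 7.09 CPM in the overexpressing libraries and 247 ± 8.79 CPM in the controls (SD, n = 3 each), so the sums overlapped while the make-up differed. SIGLEC9 made up 0.133% ± 0.0142 of this sum in the overexpressing libraries and 1.33% ± 0.0476 in the controls, and SIGLEC5 17.5% ± 0.701 and 25.1% ± 1.64 (SD, n = 3 each).

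Levels were compared between the described Siglec genes per kb of merged exon length. In the overexpressing libraries SIGLEC6 was highest at 27.1 ± 4.17 CPM per kb, followed by SIGLEC5 (18.6 ± 0.720), SIGLEC7 (14.3 ± 1.04), SIGLEC14 (12.2 ± 0.0753), CD33 (9.23 ± 0.504) and SIGLEC10 (5.82 ± 0.0971). In the controls SIGLEC5 (26.8 ± 1.04 CPM per kb) and SIGLEC6 (24.6 ± 5.59) came first and overlapped each other, followed by SIGLEC14 (13.4 ± 0.240), SIGLEC7 (8.76 ± 0.312), CD33 (7.87 ± 0.415) and SIGLEC10 (6.98 ± 0.383; SD, n = 3 throughout). SIGLEC1 and SIGLEC9 were far below these 6 genes. At the low end, SIGLEC1 (0.149 ± 0.0596 CPM per kb) and SIGLEC9 (0.128 ± 0.0101) overlapped in the overexpressing libraries, whereas SIGLEC9 (1.30 ± 0.00696) stood above SIGLEC1 (0.0143 ± 0.00462) in the controls. All other neighbours in these 2 orders were apart in every library. SIGLEC7 ranked above SIGLEC14 in the overexpressing libraries and below it in the controls.

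**Figure D2:**
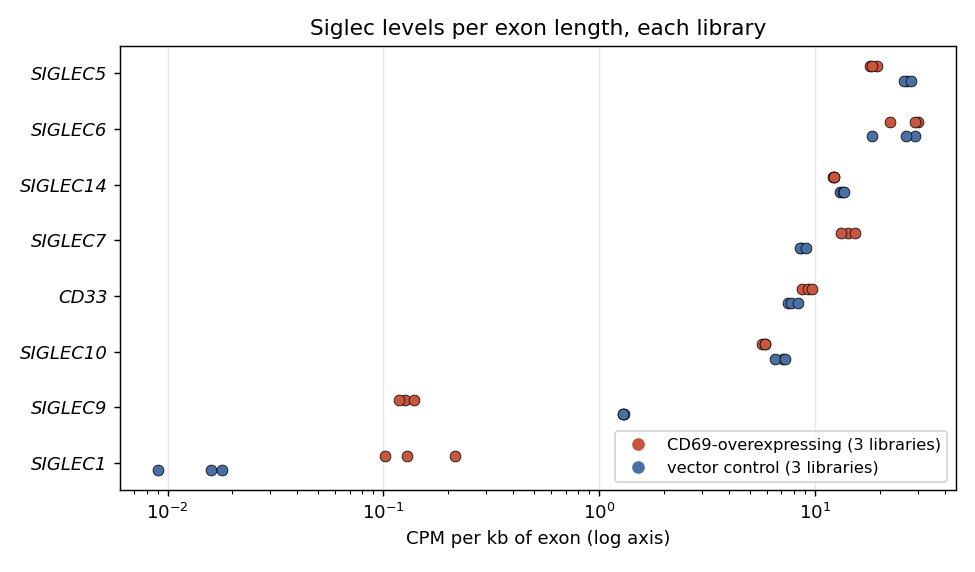
Siglec levels per kb of exon on a log axis, 1 point per library, with CD69-overexpressing libraries drawn above vector controls for each gene. Among the genes shown, SIGLEC5 and SIGLEC6 are the most abundant. SIGLEC9 is at 0.128 CPM per kb in overexpressing cells, close to SIGLEC1 there, and at 1.30 CPM per kb in controls.

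The genes most like SIGLEC9 across the 6 libraries were sought among 14239 tested genes of at least 1 CPM on average and no library at 0. Likeness was the root mean square difference in log2 CPM relative to the control mean. The closest were SPP1, which encodes the secreted phosphoprotein osteopontin (0.56), CNR2, a cannabinoid receptor of leukocytes (0.58), GLYATL3 (0.60), FLT1, the VEGF receptor VEGFR1 (0.61), and the keratin pseudogene KRT17P2 (0.68), whose counts are uncertain because of near-identical copies. CNR2 averaged 0.901 ± 0.301 CPM in the overexpressing libraries and 5.66 ± 0.120 CPM in the controls, and SPP1 0.289 ± 0.0418 and 2.07 ± 0.785 CPM (SD, n = 3 each). The log2 fold changes of these 5 genes were -2.83 to -2.43, all smaller in size than that of SIGLEC9.

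Around the chromosome 19 cluster, from 250 kb before its first to 250 kb after its last member, 34 other coding genes are annotated, of which 20 were tested. Of these, 6 rose and 1 fell (edgeR quasi-likelihood test, adjusted p under 0.05; 24.1% of all tested genes passed), with a median log2 fold change of 0.48. The one that fell was FPR2, a receptor for formyl peptides of bacteria, at 11.2 ± 0.624 CPM in the overexpressing libraries and 29.1 ± 1.19 CPM in the controls (SD, n = 3 each; log2 fold change -1.39, SE 0.09, edgeR adjusted p = 6.68e-05). Among those that rose, the cytotoxic granule gene NKG7 was at 106 ± 10.9 CPM in the overexpressing libraries and 60.5 ± 10.5 CPM in the controls (log2 fold change 0.81, SE 0.13, edgeR adjusted p = 0.00387). The others were the zinc finger genes ZNF577 (2.14), ZNF649 (1.62) and ZNF175 (0.75), VSIG10L (0.94) and SIGLEC8 (1.51), all as log2 fold changes. ZNF577 and ZNF649 share exonic bases with each other. Without overexpressing replicate 2 only 2 of the 20 rose, and without control replicate 1 only 3. VSIG10L was lost without any library but control replicate 3 (adjusted p = 0.061 to 0.138, range over its alternatives 0.0122 to 0.221). ZNF649 was lost without any overexpressing library or control replicate 1 (0.0814 to 0.0992, range over its alternatives 0.00483 to 0.218), and ZNF175 without overexpressing replicate 2 or control replicate 1 or 2 (0.0534 to 0.0704, range over its alternatives 0.000751 to 0.0704).

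Between SIGLEC7 and CD33 lie 2 transcribed Siglec pseudogenes, named here after their values were seen. SIGLEC17P stood at 46.3, 48.7 and 49.7 CPM in the overexpressing libraries, against 21.6, 18.3 and 22.2 CPM in the controls (log2 fold change 1.22, SE 0.09, edgeR adjusted p = 0.000127). SIGLEC22P stood at 4.73, 4.19 and 4.17 CPM in the overexpressing libraries, against 2.48, 2.64 and 2.62 CPM in the controls (log2 fold change 0.76, SE 0.17, edgeR adjusted p = 0.0149). Both rose, as did SIGLEC7 before them, and SIGLEC9 was the only tested gene with its start within 100 kb that was called lower. How reads that match several Siglec copies were counted is not given in the sources used here, so part of the counts of SIGLEC7, SIGLEC9, CD33 and these pseudogenes is uncertain.

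**Figure D3:**
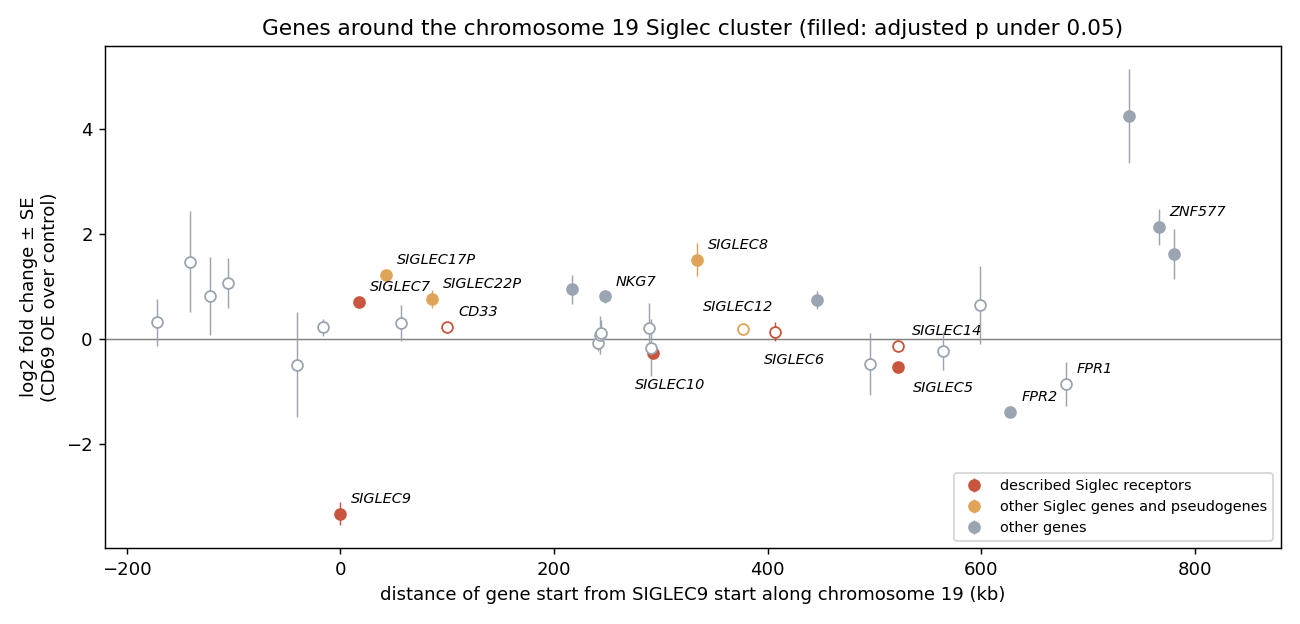
Log2 fold change with its SE (vertical axis, CD69-overexpressing over control) of tested genes against the distance of their start from the SIGLEC9 start in kb; filled points passed adjusted p under 0.05. SIGLEC9 at -3.33 lies alone below its neighbours SIGLEC7 (0.71), SIGLEC17P (1.22) and SIGLEC22P (0.76).

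Of 7 other Siglec genes, 4 were tested, and of these 2 rose and none fell (24.1% of all tested genes passed). SIGLEC8, the inhibitory receptor of eosinophils and mast cells, averaged 1.71 ± 0.229 CPM in the overexpressing libraries and 0.598 ± 0.192 CPM in the controls (SD, n = 3 each; log2 fold change 1.51, SE 0.32, edgeR adjusted p = 0.0118). The SIGLEC8 call was lost without overexpressing replicate 2 (adjusted p = 0.0516, range over its alternatives 0.000909 to 0.186). SIGLEC15, which like SIGLEC14 pairs with the product of TYROBP, averaged 4.70 ± 1.02 CPM in the overexpressing libraries and 1.90 ± 0.318 CPM in the controls (SD, n = 3 each; log2 fold change 1.31, SE 0.24, edgeR adjusted p = 0.00606). SIGLEC12 (0.19) and CD22 (0.92) did not pass. Per kb of exon, SIGLEC12 averaged 25.2 CPM in the overexpressing libraries, above SIGLEC5 (18.6), and 22.1 CPM in the controls, below SIGLEC5 (26.8).

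Genes for the signalling partners of Siglecs, such as the kinases that phosphorylate receptor tails, went both ways. Of 15 tested partners 2 rose and 4 fell (24.1% of all tested genes passed), with a median log2 fold change of -0.09. The phosphatase genes did not pass: PTPN6 was at 173 ± 4.11 CPM in the overexpressing libraries and 184 ± 16.0 CPM in the controls (SD, n = 3 each), and PTPN11 at 138 to 163 CPM in the overexpressing libraries and 129 to 184 CPM in the controls. The Src family kinase FYN stood at 16.3, 14.8 and 17.8 CPM in the overexpressing libraries, against 46.7, 46.5 and 46.0 CPM in the controls (log2 fold change -1.51, SE 0.09, edgeR adjusted p = 4.34e-05). FGR, a family member typical of myeloid cells, fell by 0.53 on the log2 scale, and SRC itself, named after its value was seen, fell by 0.68 (edgeR adjusted p = 0.0343). PLCG2, a phospholipase downstream of the kinase SYK, rose by 0.40 on the log2 scale, and CSK, the kinase that holds Src kinases inactive, by 0.47 (also named after its value was seen). TYROBP stood at 19.9, 22.2 and 23.9 CPM in the overexpressing libraries, against 14.7, 14.1 and 19.6 CPM in the controls, and did not pass (edgeR adjusted p = 0.0623); it passed without control replicate 3 (adjusted p = 0.00795, range over its alternatives 0.00795 to 0.519).

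Transcripts of genes for sialic acid supply were called in both directions. Of 7 genes that make, activate, transport or break down sialic acid, 2 rose and 1 fell (24.1% of all tested genes passed). GNE, the enzyme that starts sialic acid synthesis, was at 25.4 ± 0.242 CPM in the overexpressing libraries and 11.5 ± 1.94 CPM in the controls (SD, n = 3 each; log2 fold change 1.14, SE 0.13, edgeR adjusted p = 0.000851). NANP, the phosphatase that completes free sialic acid, stood at 47.4, 47.4 and 47.8 CPM in the overexpressing libraries, against 19.8, 19.9 and 17.3 CPM in the controls (log2 fold change 1.32, SE 0.08, edgeR adjusted p = 5.45e-05). NANP lies on chromosome 20, where 183 of 394 tested coding genes were called higher and 34 lower. SLC35A1, the carrier that brings activated sialic acid into the Golgi, fell by 0.39 on the log2 scale. SLC35A1 shares 55.5% of its exon length with another gene on the same strand, so part of its counts is uncertain.

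Of 20 sialyltransferase genes 14 were tested, and of these 1 rose and 3 fell, a share of 28.6% against 24.1% of all tested genes, with a median log2 fold change of 0.08. ST6GALNAC3, ST8SIA4, which builds polysialic acid, and ST3GAL6 fell by 0.79, 0.48 and 0.34 on the log2 scale. ST6GAL1, which makes the α2,6-linked form that CD22 binds, stood at 63.7, 83.3 and 81.4 CPM in the overexpressing libraries, against 58.5, 57.0 and 52.5 CPM in the controls (log2 fold change 0.44, SE 0.11, edgeR adjusted p = 0.0239). The call of ST6GAL1 was lost when any library other than overexpressing replicate 1 was left out, with adjusted p = 0.0524 to 0.0961 in those 5 fits and a range over its alternatives of 0.00225 to 0.468. The call of ST3GAL6 was lost without overexpressing replicate 1 or 2 or control replicate 2 (adjusted p = 0.0518 to 0.0802, range over its alternatives 0.000577 to 0.240). NEU1, the lysosomal sialidase, was the one of 2 tested sialidase genes that fell, by 0.47 on the log2 scale (9.94% of all tested genes fell).

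Of 8 proteins known to carry sialylated ligands of Siglecs, 1 rose and 1 fell at the transcript level (24.1% of all tested genes passed), with a median log2 fold change of -0.07. SPN, the mucin CD43 and a ligand of SIGLEC7, stood at 322, 336 and 286 CPM in the overexpressing libraries, against 229, 226 and 196 CPM in the controls (log2 fold change 0.54, SE 0.09, edgeR adjusted p = 0.00423). CD52 stood at 1.39, 3.62 and 3.60 CPM in the overexpressing libraries, against 7.03, 5.29 and 8.33 CPM in the controls (log2 fold change -1.26, SE 0.37, edgeR adjusted p = 0.0427), and its call was lost without overexpressing replicate 2 or 3 or any control (adjusted p = 0.0616 to 0.110 in those 5 fits, range over its alternatives 0.00285 to 0.110). CD24 averaged 11.9 CPM in both groups, with overlapping libraries, and did not pass (log2 fold change -0.01, SE 0.17). LGALS3BP, a secreted ligand of SIGLEC9, stood at 17.4, 5.39 and 6.76 CPM in the overexpressing libraries, against 15.3, 24.9 and 19.6 CPM in the controls. It did not pass (edgeR adjusted p = 0.125), and passed without overexpressing replicate 1 (adjusted p = 0.00282, range over its alternatives 0.00282 to 0.754).

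Other inhibitory receptors of myeloid cells also went both ways. Of 18 genes, 14 were tested, and of these 3 rose and 3 fell (24.1% of all tested genes passed), with a median log2 fold change of -0.14. CLEC12A, a C-type lectin receptor and leukaemia antigen, was at 86.6 ± 2.68 CPM in the overexpressing libraries and 30.4 ± 2.82 CPM in the controls (SD, n = 3 each; log2 fold change 1.51, SE 0.08, edgeR adjusted p = 3.75e-05). SIRPA, the receptor for CD47, and PILRA rose by 0.74 and 1.40 on the log2 scale, where PILRA shares exonic bases with PILRB. SIRPA lies on chromosome 20, whose tested coding genes had a median log2 fold change of 0.37. CD300A fell by 1.22 on the log2 scale, and LILRB1 and LILRB2, named after their values were seen, fell by 1.27 and 0.43. Over all 7 lists of partner genes together, 11 of 64 tested genes rose and 13 fell, which is 37.5%, against 24.1% of all tested genes.

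**Figure D4:**
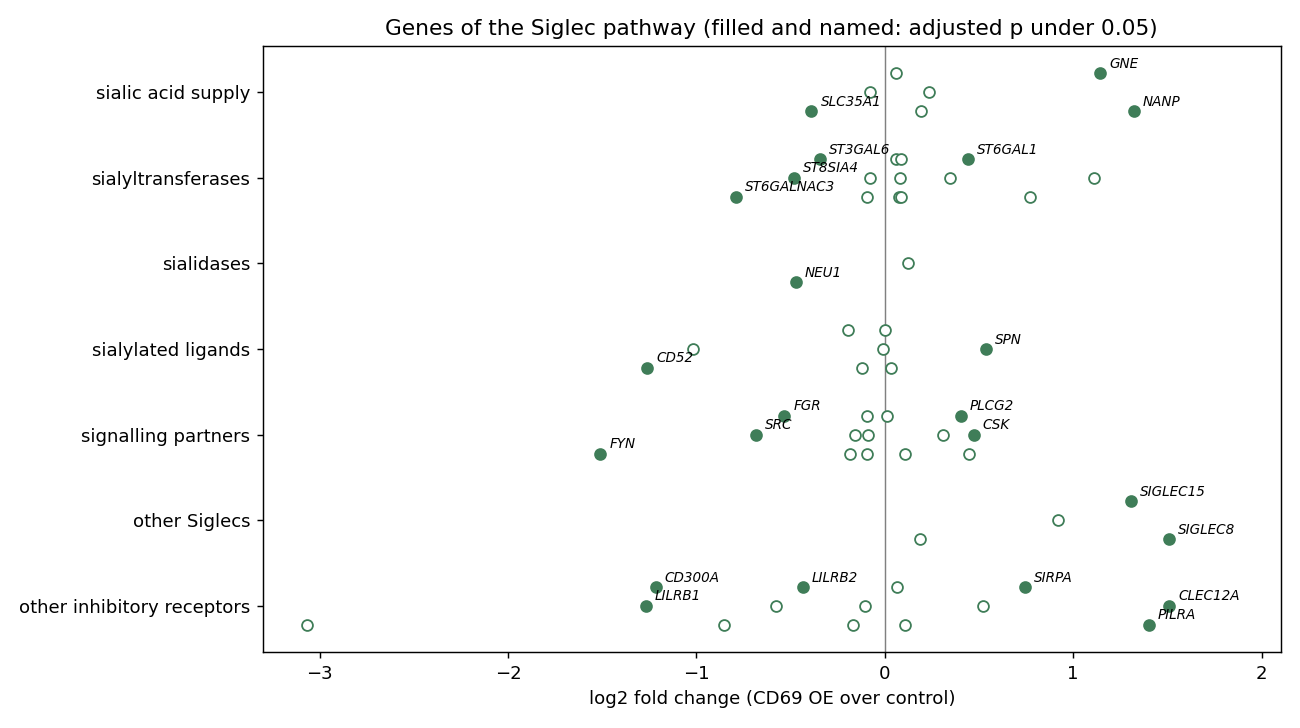
Log2 fold change (horizontal axis, CD69-overexpressing over control) of tested genes in the 7 lists of Siglec partner genes, 1 point per gene, with 1 signalling partner not shown; filled, named points passed adjusted p under 0.05. Each list but the sialidases and the other Siglecs holds genes that passed on both sides of 0, with FYN at -1.51 and CLEC12A at 1.51.

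Markers of other cell types that carry Siglecs were set beside these values, and their part in the results was not tested. In bulk RNA, fewer cells of a type and less RNA per cell cannot be told apart. CD22, the Siglec of B cells, stood at 2.36, 10.7 and 10.6 CPM in overexpressing replicates 1, 2 and 3, against 4.55, 3.84 and 4.07 CPM in the controls, in the same 2 libraries in which B cell markers were high. ST6GAL1 was also highest in those 2 libraries. In overexpressing replicate 1, where the B cell sum was 35.5 CPM, SIGLEC9, SIGLEC5 and SIGLEC10 were also below every control. The 10 monocyte and macrophage markers summed to 328 to 346 CPM in the overexpressing libraries and 309 to 317 CPM in the controls, most of it lysozyme. Of the macrophage markers, FCGR3A, CD163, MRC1 and C1QA were at 0 in overexpressing replicate 1, where SIGLEC1 held 57 counts, and were all detected in replicate 2, at 0.142 to 0.319 CPM. The 8 mast cell, basophil and eosinophil markers summed to 560 to 644 CPM in the overexpressing libraries and 857 to 1103 CPM in the controls, nearly all of it the tryptase gene TPSAB1, and the eosinophil and basophil gene CLC was at 0 in every library. The promyelocyte markers summed to 4481 to 5187 CPM in the overexpressing libraries and 1992 to 2254 CPM in the controls, and 5 of 8 rose. The 9 neutrophil markers summed to 193 to 208 CPM in the overexpressing libraries and 240 to 264 CPM in the controls, and 3 of 7 tested fell. The 8 T and natural killer cell markers, mostly NKG7, summed to 99.7 to 119 CPM in the overexpressing libraries and 54.6 to 73.5 CPM in the controls, with CD3E, CD3G and NCR1 at 0 in every library. CD2, the only other marker of this list that was tested, fell: it was at 0 in overexpressing replicates 1 and 3 and at 0.142 CPM in replicate 2, against at least 0.910 CPM in every control (edgeR adjusted p = 0.018). Among the 6 plasmacytoid dendritic cell markers, TCF4 stood at 12.2, 41.1 and 40.2 CPM in the overexpressing libraries, against 11.7, 10.2 and 6.67 CPM in the controls, and made the summed level higher in overexpressing replicates 2 and 3 (48.8 and 47.6 CPM, against at most 20.6 CPM in a control). The other 5 did not follow it: IRF7 and IL3RA did not pass, and CLEC4C, LILRA4 and GZMB had too few counts to be tested.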

How the data were processed

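The authors deposited 1 table of estimated counts per Ensembl gene for 6 libraries. FastQC, fastp, STAR and Subread's featureCounts are named, with GRCh38 (hg38), per the submitters' processing notes. Libraries were strand-specific, per the labels' protocols. Versions, annotation, strand setting and the treatment of reads with several matches are not given in the sources used here. All values were whole. In these counts, 1496 genes held exactly 4 counts in control replicate 1, against 777 at 3 and 1084 at 2, so 1 fragment may stand for about 4 counts.

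Gene symbols came from a name table, and positions and merged exon lengths from GENCODE 29 (GRCh38). Genes kept by edgeR's filterByExpr (19485) received TMM factors and entered edgeR's quasi-likelihood test (edgeR 4.0.16, R 4.3.3), two-sided, Benjamini-Hochberg adjusted over all tested genes, with a threshold of 0.05. CPM uses TMM factors. SEs were derived from the fold change and its F statistic. The test was checked on simulated counts. The p-values rest on the spread between these libraries, which may be technical.

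Named were all 8 Siglec genes, up to 4 called genes of each list with the smallest p, ligands and partners tied to a named receptor, called coding neighbours and the 5 genes most like SIGLEC9. The members and lists were chosen with earlier results of these data known. Alternatives were RLE or no scaling factors, no filter, at least 50 counts in 3 libraries, DESeq2 1.42.0, limma-voom (limma 3.58.1), glmTreat against a fold of 1.2, counts divided by 4, a replicate block, each library left out and overexpressing replicate 1 alone. Figures were drawn with matplotlib 3.10.9. The values of 1 signalling partner gene are not reported here, though list counts include it.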

Additional observations from a re-analysis of the deposited data

How the results depend on the processing

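The 8 Siglec genes kept the sign of their fold change in every alternative in which they were tested, except SIGLEC6, which lay between -0.03 and 0.28 and passed in none. SIGLEC9 ranged from -3.44 to -3.29 and SIGLEC7 from 0.65 to 0.75, and both passed in every alternative. Called members numbered 2 higher and 3 lower, and 3 and 3 with the replicate block and with no scaling factors, where CD33 passed. CD33 also passed with at least 50 counts in 3 libraries, where SIGLEC1 was not tested, and without control replicate 3. With no filter, glmTreat or limma-voom 2 members were lower, since SIGLEC10 did not pass. The lowest and highest counts with 1 library left out were 1783 and 2917 genes higher, 1137 and 2226 genes lower (1783 and 1137 without overexpressing replicate 2, 1227 lower without control replicate 1, 1287 lower without control replicate 2), 2 and 6 neighbouring genes higher, 2 and 3 members higher, 2 members lower throughout, 9 and 13 partner genes higher and 9 and 12 lower. Against a fold of 1.2 there were 1723 genes higher, 874 lower and 6 partner genes lower. With overexpressing replicate 1 alone, which is assumed to vary like the controls, there were 797 genes higher and 380 lower, 1 member higher (SIGLEC7), 1 lower (SIGLEC9), 5 partner genes higher, 5 lower and, by edgeR, 0 neighbouring genes higher (6 at an unadjusted p under 0.05; no other tool was run on this subset). The causes were not tested, beyond that this alternative uses fewer libraries and that glmTreat asks for a larger fold.

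With the replicate block, 3194 genes were higher and 2669 lower, and 12 partner genes were higher and 16 lower. The numbers do not pair replicates 1 and 2, whereas replicate 3 had something in common across the groups. Deviations from the group means correlated at 0.093, 0.147 and 0.369 for replicates 1, 2 and 3 across genes. Only overexpressing replicate 3 correlated best with its own number, at -0.255 and -0.282 with control replicates 1 and 2. Overexpressing replicates 1 and 2 correlated at -0.169 and -0.231 with control replicate 3. Depth limits SIGLEC9 in overexpressing cells and SIGLEC1 in controls.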
